A study of Mus musculus with 16 samples.

Results

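The TFII-I family of transcription factors has 3 genes in the mouse, Gtf2ird1, Gtf2i and Gtf2ird2, and their transcripts were followed here in retinas that carry or lack a working Gtf2ird1 gene. Every row of the deposited table that the platform annotation assigns to one of these symbols was taken, which gave 6 of 115830 rows. Of these, 4 belong to Gtf2ird1, 1 to Gtf2i and 1 to Gtf2ird2, and 0 rows carry a family symbol together with that of another gene. A row is the summary of a set of probes on an Affymetrix Mouse Exon 1.0 array, and its value is a log2 signal, so that a difference of 1 is a doubling.

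Total RNA from individual retinas was hybridised to 16 arrays in 4 groups of 4 biological replicates. The groups were Gtf2ird1 null retinas (labelled BEN-NULL, BEN being a synonym of Gtf2ird1) at 2 weeks, WT retinas at 2 weeks, null retinas at 4 months and WT retinas at 4 months. The nature of the null allele, the strain and the sex of the mice are not given in the sources used here, and no agent was applied. For the older groups a growth note says 2 months where the sample titles say 4 months, and the titles are followed here.

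TFII-I proteins share several copies of a helix-loop-helix-like domain, the I-repeat, through which they bind DNA and one another. TFII-I itself, the product of Gtf2i, binds initiator elements and E-boxes at promoters, is phosphorylated by Src-family and other tyrosine kinases and also acts on calcium entry in the cytoplasm. GTF2IRD1 binds sequences with a GGATTA core, and GTF2IRD2 carries a transposase-derived domain at its C-terminal end. In humans the 3 genes lie in or beside the region deleted in Williams-Beuren syndrome, and in the mouse retina GTF2IRD1 is known for its part in the patterning of cone opsins.

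The promoters of the 3 genes are shown because the deposited rows measure what is transcribed from these loci and because one of the proteins is known to act on its own promoter. All 3 genes matched a window in the RefSeq promoter table of build GRCm38.p6, which runs from 250 bases before the annotated start to 50 after it. The arrays were annotated on another build, mm8, so these positions serve only for the sequences. The letters in capitals are matches to GGATTA, read on both strands so that TAATCC is the same motif, or to CACGTG, the E-box bound by USF proteins and TFII-I, which reads alike on both strands.
Gtf2ird1, chr5:134456667-134456966, minus strand: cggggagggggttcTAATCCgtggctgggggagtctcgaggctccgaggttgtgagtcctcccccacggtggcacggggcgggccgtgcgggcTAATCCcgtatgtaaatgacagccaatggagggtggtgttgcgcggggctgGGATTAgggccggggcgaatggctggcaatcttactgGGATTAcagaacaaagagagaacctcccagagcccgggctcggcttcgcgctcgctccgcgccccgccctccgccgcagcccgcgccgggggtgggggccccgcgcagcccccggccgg
Gtf2i, chr5:134314711-134315010, minus strand: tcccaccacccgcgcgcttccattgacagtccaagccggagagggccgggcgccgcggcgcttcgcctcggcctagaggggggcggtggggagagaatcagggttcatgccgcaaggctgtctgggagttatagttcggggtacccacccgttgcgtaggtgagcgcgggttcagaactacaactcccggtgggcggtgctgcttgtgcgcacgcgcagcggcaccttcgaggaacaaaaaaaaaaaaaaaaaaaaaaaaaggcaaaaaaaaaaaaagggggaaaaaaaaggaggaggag
Gtf2ird2, chr5:134183788-134184087, plus strand: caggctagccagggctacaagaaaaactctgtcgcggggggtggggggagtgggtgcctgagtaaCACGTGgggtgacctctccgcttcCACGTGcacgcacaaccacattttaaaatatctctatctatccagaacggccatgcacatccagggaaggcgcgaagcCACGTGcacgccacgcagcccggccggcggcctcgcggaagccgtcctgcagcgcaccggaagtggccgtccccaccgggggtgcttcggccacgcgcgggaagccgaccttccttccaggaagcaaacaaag

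The Gtf2ird1 window held 4 matches to GGATTA, starting at positions -236, -157, -106 and -69 from the annotated start. The first pair lies on the strand opposite to the gene and the other pair on its own strand, and none overlaps another match. Of 32851 mouse promoter windows of the same length, 7.06% held at least 1 match, 0.0244% held at least 3 and 0.00609% held at least 4. Those with at least 4 were the window of Gtf2ird1 and that of Zfp352, a zinc finger gene, which held 9. The human GTF2IRD1 protein is known to bind GGATTA elements upstream of its own gene. The same core, read as TAATCC, is the site of the photoreceptor factor CRX. The Gtf2ird2 window held 3 matches to CACGTG, at positions -185, -161 and -83, where 7.15% of windows held at least 1 and 0.0883% at least 3. The Gtf2i window held neither motif. A match is a string of letters in this window, and no binding was measured on these arrays.

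The samples were retinal by their markers. Of 13 retina markers 11 had a row with a single gene symbol, and the mean log2 signal over these rows lay between 11.25 and 11.52 on all 16 arrays. Between the genotypes 1 of the 11, the cone arrestin gene Arr3, was called. It was lower in null at 2 weeks (-0.59, limma adjusted p = 0.0406), where 0.77% of all genes were called in either direction. The array medians ran from 5.31 to 5.55, and precision is set by having 4 arrays in each group. WT replicate 1 of 2 weeks stood apart, with the highest median and a highest correlation with any other array of 0.967, where every other array reached at least 0.982. Xist, expressed from the inactive X chromosome of females, was high on 2 of 4 WT arrays at 2 weeks and on 1 of 4 WT arrays at 4 months, and on 0 null arrays. Lens and pigment epithelium, tissues that touch the dissected retina, also moved with the groups. The mean log2 signal of 11 lens genes ran from 9.25 to 12.36 in null and from 7.70 to 10.01 in WT at 2 weeks, and from 7.65 to 11.06 in null and from 7.52 to 10.26 in WT at 4 months. All 11 lens genes had a positive difference in null at 2 weeks, with 0 past the threshold in limma and 7 at an unadjusted p under 0.05. The mean of 7 pigment epithelium genes lay between 7.19 and 7.72 in null and between 6.30 and 7.12 in WT at 2 weeks, without overlap, and Tyr and Pmel, of melanin synthesis and the melanosome, passed, where 0.454% of all genes were called higher. At 4 months it lay between 5.12 and 6.44 in null and between 5.58 and 6.19 in WT. Their part in the family's values was not tested, except that each limma contrast of the family rows was also fitted with the lens mean as a covariate.

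Gtf2ird1, the disrupted gene, was lost from the null retinas by 3 of its 4 rows, while the fourth gave a similar signal in null and WT. In row 7007348 the null arrays at 2 weeks read 4.86, 4.81, 4.62 and 4.53, and the WT arrays read 8.73, 9.41, 9.25 and 9.24. At 4 months the null arrays read 4.63, 4.60, 4.65 and 4.95 and the WT arrays 9.55, 9.32, 9.37 and 9.30. The null arrays lay far below the WT arrays of their age, and rows with null below WT and no overlap made up 2.65% of all rows at 2 weeks and 1.92% at 4 months, and the null values were alike at the 2 ages. The null signal was 4.57% of WT at 2 weeks (95% interval 3.75% to 5.57%) and 3.91% at 4 months (3.21% to 4.76%), with limma adjusted p of 3.03e-11 and 1.14e-11.

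Row 7008286 was also far lower in null retinas. Its null arrays read 5.29, 5.01, 5.13 and 4.64 at 2 weeks and 5.02, 4.99, 5.14 and 5.07 at 4 months. Its WT arrays read 8.69, 8.70, 8.64 and 9.07 at 2 weeks and 9.14, 9.29, 8.78 and 8.60 at 4 months. The groups were again far apart, and the WT arrays of the 2 ages overlapped. The null signal was 7.39% of WT at 2 weeks (95% interval 5.85% to 9.33%, limma adjusted p = 2.08e-09) and 6.72% at 4 months (5.32% to 8.49%, limma adjusted p = 1.03e-09).

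In row 7008402 the null arrays read 4.69, 4.77, 4.86 and 4.76 at 2 weeks and 4.66, 4.66, 4.74 and 4.96 at 4 months. The WT arrays read 8.22, 9.11, 8.34 and 8.79 at 2 weeks and 9.51, 9.48, 9.44 and 9.39 at 4 months. All 4 older WT arrays were above all 4 younger ones, as in 5.94% of all rows, and the younger ones were spread over 0.89 units against 0.12 in the older. The null signal was 6.96% of WT at 2 weeks (95% interval 5.58% to 8.69%, limma adjusted p = 9.22e-10) and 3.86% at 4 months (3.09% to 4.82%, limma adjusted p = 3.67e-11).

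Among the 115830 rows, null minus WT ranked these 3 as the lowest (row 7007348), the 7th lowest (row 7008402) and the 9th lowest (row 7008286) at 2 weeks, and as the second, the lowest and the 5th lowest at 4 months. A fall was called in 3 of the 6 family rows at each age, where 0.344% of all rows were called lower at 2 weeks and 0.0941% at 4 months. The null means of these rows, 4.71 to 5.06, lay within the range of 12 genes of other tissues that serve as a mark of absent transcripts (4.41 to 6.37, median 5.06, with the sperm gene Tnp2 highest). The percentages are therefore upper bounds, limited by the signal that an absent transcript gives. In RNA from whole retinas, fewer cells that express a gene and less RNA per cell cannot be told apart.

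The fourth row of Gtf2ird1, 7008782, did not fall in null retinas. Its null arrays read 10.41, 10.39, 10.60 and 10.38 at 2 weeks and its WT arrays 10.32, 10.26, 10.24 and 10.28. At 4 months the null arrays read 10.24, 10.30, 10.26 and 10.42 and the WT arrays 10.19, 10.41, 10.34 and 10.16. The null arrays lay just above the WT arrays at 2 weeks, as they did in 2.3% of all rows, and the groups overlapped at 4 months. The difference at 2 weeks was 0.17 on the log2 scale (95% interval -0.0062 to 0.35, limma adjusted p = 0.471, exact permutation p = 0.0286 on both sides, which is the least a comparison of 4 with 4 can give). At 4 months it was 0.032 (95% interval -0.15 to 0.21, limma adjusted p = 1). As a share of WT, the intervals ran from 99.6% to 127% at 2 weeks and from 90.4% to 116% at 4 months. Which part of the locus each row probes is not given in the files, so the retained signal cannot be assigned to an exon or to another transcript. Whether the signal of row 7008782 comes from Gtf2ird1 RNA at all was not tested.

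**Figure D1:**
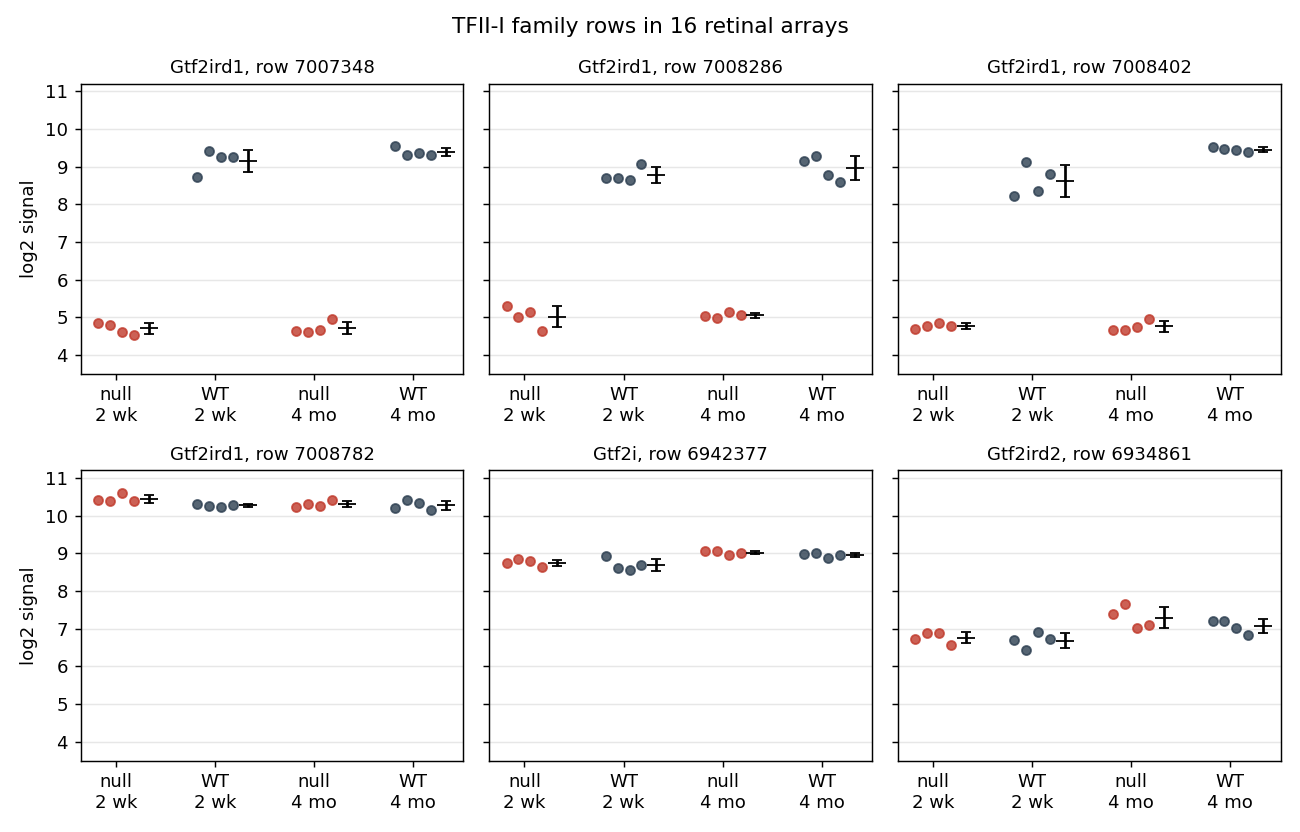
Log2 signal of the 6 TFII-I family rows on the 16 arrays, by group (null in red, WT in dark blue), with 1 point per array and, to its right, the group mean with its SD (n = 4). In 3 Gtf2ird1 rows the null arrays sit between 4.53 and 5.29 and the WT arrays between 8.22 and 9.55, while row 7008782, Gtf2i and Gtf2ird2 show no such gap.

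The rows of Gtf2ird1 were then compared with each other by the difference between 2 rows within each array, tested between null and WT by a two-sided exact permutation test at each age (12 comparisons, 4 against 4 arrays). Row 7008782 stood apart from each of the 3 lost rows at both ages, by -4.73 to -3.93 on the log2 scale (lost row minus row 7008782). Each pair gave the least exact permutation p, 0.0286 (adjusted p = 0.0343). The rows had been sorted as lost or kept by these same values, so that p was set in advance and adds no support. The 12 comparisons also held the pairs among the 3 lost rows, of which some passed (exact permutation, adjusted p = 0.0343) and others did not (0.714). No meaning is read into these, since the null values of the lost rows lay at the level of absent transcripts. Each fall is then a lower bound set by the row's own floor.

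Gtf2i, the gene of TFII-I itself, stayed at a similar level in null and WT retinas. At 2 weeks its row, 6942377, read 8.73, 8.84, 8.79 and 8.64 in null and 8.93, 8.61, 8.55 and 8.69 in WT. At 4 months it read 9.05, 9.06, 8.96 and 9.00 in null and 8.98, 9.01, 8.88 and 8.94 in WT. The genotypes overlapped at both ages. Null minus WT was 0.057 at 2 weeks (95% interval -0.13 to 0.24, limma adjusted p = 0.858) and 0.066 at 4 months (95% interval -0.12 to 0.25, limma adjusted p = 1). Averaged over the ages the null signal was 104% of WT, with a 95% interval from 95.3% to 114%.

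Gtf2ird2, which encodes the transposase-derived family member, likewise showed no call between the genotypes. Its row, 6934861, read 6.72, 6.87, 6.88 and 6.57 in null and 6.69, 6.42, 6.90 and 6.72 in WT at 2 weeks. At 4 months it read 7.40, 7.65, 7.03 and 7.09 in null and 7.21, 7.21, 7.02 and 6.82 in WT. The 2 highest arrays at 4 months were null, and the other null arrays lay among the WT arrays. The genotype difference was 0.076 at 2 weeks (95% interval -0.23 to 0.38, limma adjusted p = 0.89) and 0.23 at 4 months (95% interval -0.078 to 0.53, limma adjusted p = 1). The interval at 4 months reaches 145% of WT, so a moderate rise could not be seen or dismissed with 4 arrays a group. Averaged over the ages the null signal was 111% of WT (95% interval 95.6% to 129%, limma adjusted p = 0.689).

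**Figure D2:**
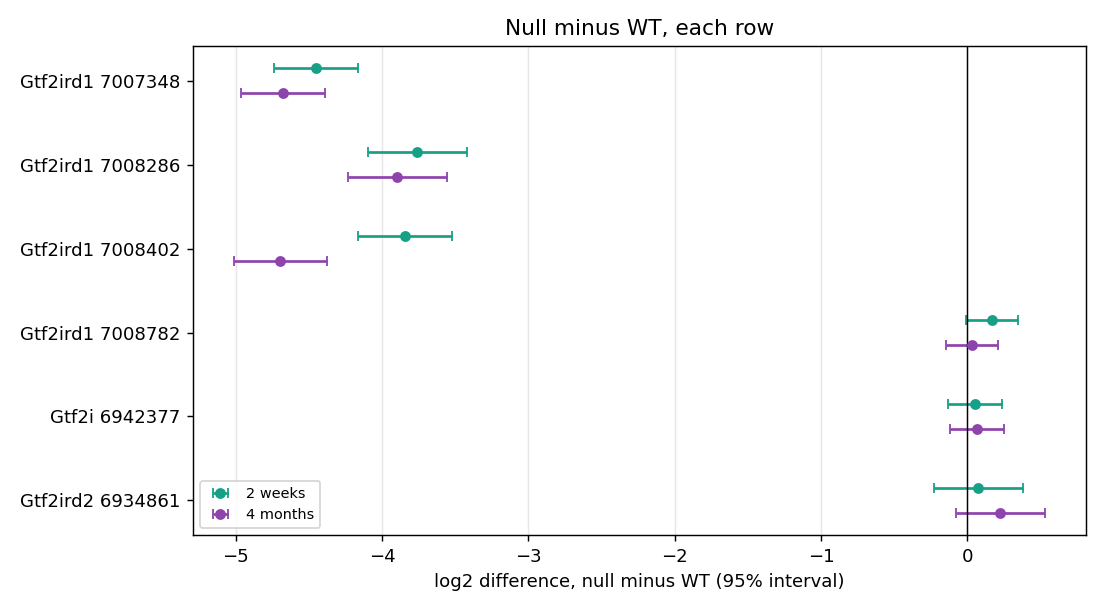
Log2 difference between null and WT for each family row at 2 weeks (green) and 4 months (purple), with bars for the 95% interval from limma. The 3 lost Gtf2ird1 rows lie between -4.70 and -3.76, and the intervals of row 7008782, Gtf2i and Gtf2ird2 include 0 at both ages.

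The interaction asked whether the effect of the null allele differed between the ages. Of the 6 rows 0 passed in limma, where 0.0173% of all rows were called. An unadjusted p under 0.05 was found in 1 of them, beside 6236 of all 115830 rows. That row was 7008402, whose null minus WT difference was lower at 4 months than at 2 weeks by 0.85 (95% interval -1.30 to -0.40, unadjusted p = 0.00107, adjusted p = 0.444). The null levels of that row differed by -0.015 between the ages, so the interaction value lay almost wholly in the WT arrays. Those null levels lay within the range of absent transcripts, so the interaction cannot show whether the null allele acts differently at the 2 ages. Without WT replicate 2 of 2 weeks, the highest of the younger WT arrays, the value was -1.02 with a limma adjusted p of 0.0474. Leaving out that array lowers the younger WT mean and so enlarges the value, and no meaning is read into that p.

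Within one genotype, 1 family row passed the test over age, in WT. Between 2 weeks and 4 months in WT, row 7008402 of Gtf2ird1 rose by 0.84 on the log2 scale (1.79-fold, 95% interval 0.52 to 1.16, limma adjusted p = 0.00391), and 1 of the 6 rows was called where 3.67% of all rows were called higher. The call was lost when only the 8 WT arrays were fitted (adjusted p = 0.0568), with the same difference. The 2 other lost rows had differences of 0.23 (row 7007348) and 0.18 (row 7008286), and row 7008782 had the same WT mean, 10.27, at both ages. A test of the rows against each other, added after the values were seen, gave an age effect 0.61 larger in row 7008402 than in row 7007348 and 0.84 larger than in row 7008782 (two-sided exact permutation p = 0.0286 each, adjusted p = 0.0858 over 6 pairs). Against row 7008286 it was 0.66 larger (exact permutation p = 0.0857, adjusted p = 0.171), and none of these comparisons passed.

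Gtf2i was 0.26 higher at 4 months in WT (95% interval 0.075 to 0.44, limma adjusted p = 0.103) and 0.27 higher in null (95% interval 0.084 to 0.45, limma adjusted p = 0.112). All 4 older null arrays were above the younger ones, as in 7.53% of all rows. In WT the younger group overlapped the older one through replicate 1, at 8.93. Gtf2ird2 was 0.38 higher in WT (95% interval 0.078 to 0.69, limma adjusted p = 0.152) and 0.53 higher in null (95% interval 0.23 to 0.84, limma adjusted p = 0.0525), with no overlap between the ages in null. In null retinas 0 of the 6 rows passed in limma, while 2.27% of all rows were called higher. An unadjusted p under 0.05 was found in 2 of the 6, beside 17880 of all 115830 rows in either direction. Without WT replicate 1 of 2 weeks, Gtf2i passed in WT (0.34, limma adjusted p = 0.0157) and in null (0.27, limma adjusted p = 0.0399), and Gtf2ird2 passed in null (0.53, limma adjusted p = 0.0477). Row 7008402 of Gtf2ird1 kept its call in WT without that array (0.70, limma adjusted p = 0.00684).

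When the age difference was averaged over both genotypes, a contrast added after these values were seen, 3 of the 6 rows passed, where 7.52% of all rows were called higher. Gtf2i rose by 0.26 (1.20-fold, limma adjusted p = 0.00994) and Gtf2ird2 rose by 0.46 (1.37-fold, limma adjusted p = 0.00734). The third was row 7008402 of Gtf2ird1, which rose by 0.41 in this average and by its WT arrays alone. Without WT replicate 1 of 2 weeks the values were 0.30 for Gtf2i (limma adjusted p = 0.00125), 0.46 for Gtf2ird2 (0.00992) and 0.34 for row 7008402 of Gtf2ird1 (0.0242). With the arrays quantile normalized the value of Gtf2i was 0.18 with an adjusted p of 0.12, and its call was lost. Pigment epithelium genes mostly moved the other way over the same interval. In null retinas 4 of 7 fell, where 3.97% of all genes were called lower. In WT retinas 1 of 7, Pmel, was called lower, and 2 of 7 had a positive difference. The part of pigment epithelium in these rises was not tested. With the lens covariate, Gtf2i rose by 0.27 (adjusted p = 0.0222) and Gtf2ird2 by 0.44 (adjusted p = 0.0253).

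**Figure D3:**
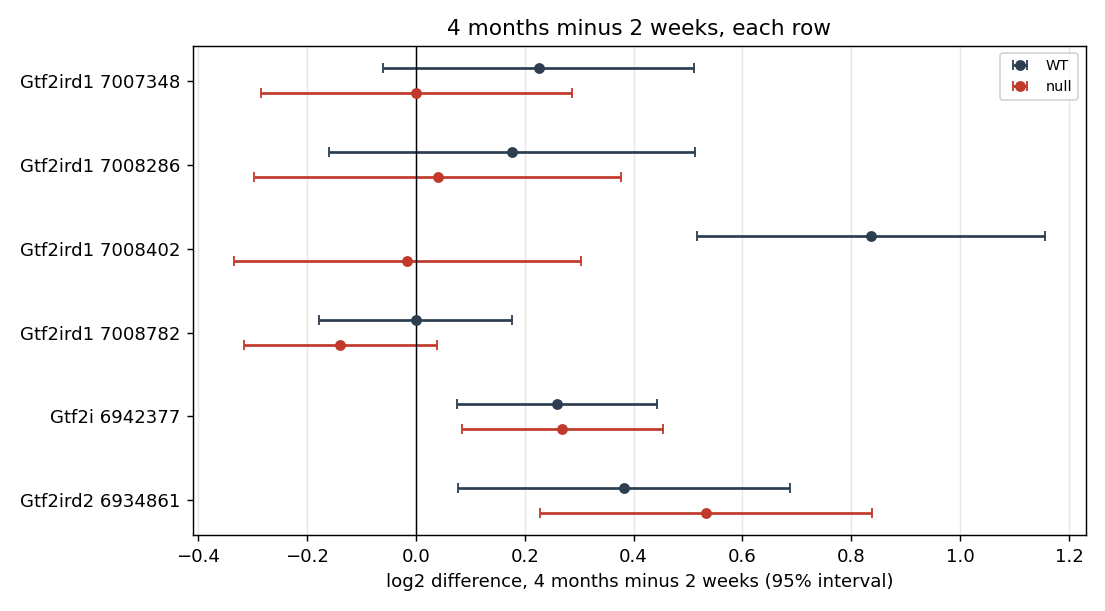
Log2 difference between 4 months and 2 weeks for each family row in WT (dark blue) and null (red) retinas, with bars for the 95% interval from limma. Gtf2i and Gtf2ird2 lie between 0.26 and 0.53 in both genotypes, and row 7008402 of Gtf2ird1 lies at 0.84 in WT and at -0.015 in null.

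In order of level, Gtf2i was lowest in WT at 2 weeks (8.69 ± 0.165, SD, n = 4), then in null at 2 weeks (8.75 ± 0.0852), WT at 4 months (8.95 ± 0.0536) and null at 4 months (9.02 ± 0.0433). Gtf2ird2 had the same order, with 6.68 ± 0.197, 6.76 ± 0.146, 7.07 ± 0.184 and 7.29 ± 0.286 (SD, n = 4). For both genes the null and WT arrays of one age overlapped. Row 7008782 of Gtf2ird1 was at 10.27 in WT at each age (SD 0.0330 at 2 weeks and 0.121 at 4 months), at 10.31 ± 0.0829 in null at 4 months and at 10.45 ± 0.103 in null at 2 weeks (SD, n = 4). Levels of different rows are not compared, since each row has its own probes.

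Partners of TFII-I family members are proteins that bind or modify them. Of 26 listed partners 24 were measured, and 0 passed in either direction at 2 weeks (limma, 1 at an unadjusted p under 0.05) or at 4 months (0 at an unadjusted p under 0.05), where 0.77% and 0.291% of all genes were called, so that a count of 0 is near the background and says nothing particular to the partners. The median difference was -0.0066 at 2 weeks and 0.0012 at 4 months, beside medians of -0.020 and -0.0042 over all genes. Crx, the photoreceptor factor that recognises the TAATCC core, had 2-week levels of 11.85 ± 0.157 (null) and 11.93 ± 0.143 (WT; SD, n = 4), a difference of -0.074, and differed by -0.033 at 4 months. Thrb, the thyroid hormone receptor of the cone opsin pathway, differed by -0.043 at 2 weeks and -0.15 at 4 months, and its groups overlapped at both ages. The histone deacetylase gene Hdac1 differed by -0.15 and -0.25 (adjusted p = 0.737 and 1), and Btk, the kinase through which TFII-I was found in B cells, was near the level of absent transcripts at 4.57 to 4.68 in all groups.

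Genes known to be regulated by a family member, mostly from other tissues and cells, were described in the same way. All 9 listed targets were measured and 0 passed at either age in limma, where 0.77% of all genes were called at 2 weeks and 0.291% at 4 months. At an unadjusted p under 0.05 there was 1 target at each age, beside 12836 of 115830 rows at 2 weeks and 5331 at 4 months. Counts this small say nothing particular to the targets. The homeobox genes Hoxc8 and Gsc, whose enhancers GTF2IRD1 is known to bind in mouse and frog embryos, and the slow troponin gene Tnni1, its target in muscle, were low in these retinas, with group means from 4.47 to 4.67, from 5.04 to 5.29 and from 4.93 to 5.14. The target with an unadjusted p under 0.05 at each age was Kdr, the vascular growth factor receptor. At 2 weeks its log2 signal was 9.98 ± 0.236 (null) against 10.30 ± 0.138 (WT), and at 4 months 10.71 ± 0.114 against 10.39 ± 0.282 (SD, n = 4). Its differences of -0.31 and 0.32 had opposite signs, and neither they nor their difference (0.63, limma adjusted p = 0.727) passed. Kdr is also a marker of endothelium. Of 5 endothelium genes 4 had a positive difference in null at 2 weeks, opposite to Kdr. Among the 5, 1 gene, Flt1 (0.69), was called higher, beside 0.454% of all genes. Ncf1, the gene that lies between Gtf2ird2 and Gtf2i, differed by 0.011 and -0.039. Its level of 5.11 was near that of absent transcripts, so these differences cannot show whether it changed.

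**Figure D4:**
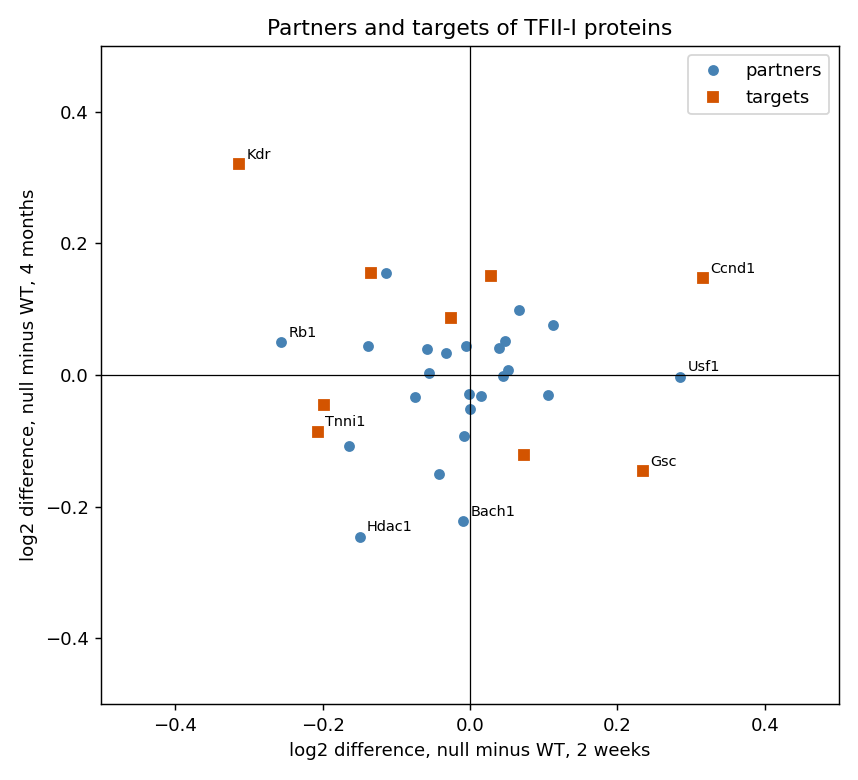
Log2 difference between null and WT at 2 weeks (horizontal axis) and at 4 months (vertical axis) for 24 partners (blue circles) and 9 targets (orange squares) of TFII-I proteins, with names where a difference is past 0.2 in size. All points lie between -0.31 and 0.32 on both axes, and none passed the test.

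Over age, averaged over both genotypes, 4 of the 24 partners rose and 4 fell, beside 6.95% of all genes called higher and 9.17% called lower. The rises were the SUMO ligase gene Pias1 (0.48), the myocyte enhancer factor Mef2c (0.42), the signal transducer Smad2 (0.41) and the retinoblastoma gene Rb1 (0.22). The falls were Hdac1 (-0.44), the cGMP-dependent kinase Prkg1 (-0.39), the repressor Bach1 (-0.31) and the deacetylase Hdac3 (-0.29), with limma adjusted p between 0.00666 and 0.0359 over the 8. Of the 9 targets Kdr rose (0.41), and Hspa5, the chaperone of the endoplasmic reticulum (-0.70), the immediate early gene Fos (-0.55) and the cyclin Ccnd1 (-0.54) fell. The limma adjusted p of these targets lay between 0.000126 and 0.0495. The averages of Rb1 and Kdr lay mostly in null retinas. Rb1 changed by 0.37 in null (limma adjusted p = 0.0332) and by 0.069 in WT (0.759). Kdr changed by 0.73 in null (limma adjusted p = 0.00884) and by 0.095 in WT (0.79). Neither gene passed for the interaction (limma adjusted p = 0.899 for Rb1 and 0.727 for Kdr).

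Likeness to each family member was described by Pearson r over the 16 arrays, against 10129 other genes that gave the median signal or more. The arrays share their groups, so r holds group differences as well as the spread within groups. The genes most like Gtf2i were Pias1 (r = 0.920), the ubiquitin-conjugating enzyme gene Ube2r2 (0.920) and the cofilin phosphatase gene Ssh2 (0.912). After group means were removed their r was 0.816, 0.787 and 0.688, so the value of Pias1 was not particular to a partner. Pias1 was spread most in WT at 2 weeks (SD 0.405, against 0.0591 to 0.154 in the other groups), the group of the array that stood apart. Its r without that array was not tested. Those most like Gtf2ird2 were the taste receptor gene Tas2r108 (0.909), the signal peptide peptidase gene Sppl3 (0.907) and the kinase gene Mast2 (0.894). Row 7008782 of Gtf2ird1 was most like Syn1, a synaptic vesicle protein (0.846), Rasl10b (0.820) and Rangap1, of nuclear transport (0.801). Row 7007348, which follows the genotype, was most like Cdcp3 (0.952), 6430590A07Rik (0.951) and the repair endonuclease gene Ercc5 (0.940). That row was taken as the Gtf2ird1 row with the lowest null minus WT difference over both ages, so genes that differ by genotype were favoured. With group means removed the r was 0.475 for Cdcp3, 0.376 for 6430590A07Rik and -0.021 for Ercc5. The likeness of Ercc5 therefore lay in the differences between groups.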

How the data were processed

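The authors' series matrix holds log2 values, 1 per row and array, deposited without a stated base, which was inferred from their range (3.76 to 15.7). Per the submitters' processing notes Partek, RMA and the build mm8 were used, and versions are not given in the sources used here. Rows were named through the platform annotation (25539 with 1 symbol, 2300 with several, 87991 with none).

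All 115830 rows entered a single limma 3.58.1 fit in R 4.3.3 (lmFit, eBayes; 16 arrays, a mean for each of 4 groups), with no further scaling or filter. The Benjamini-Hochberg adjustment covered all rows, with a call under 0.05; p-values reflect variation among arrays labelled as biological replicates. Exact permutation tests, two-sided, served for single rows. A listed gene was represented by its row with 1 symbol and the highest mean. The text names every family row, called partners and targets, 7 fixed list genes and the 3 genes most like a family row. Arr3, Kdr, Flt1, Tyr, Pmel, Ncf1 and Zfp352 were added after their values were seen. Members, lists and tests were chosen with earlier results of these data known. The fit was tested on simulated data.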

Additional observations from a re-analysis of the deposited data

Results flagged for a closer look

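Of 24 groups of 4 arrays (6 rows, 4 groups), 3 held an array far from the other 3, where chance gives about 1 in 20. Null replicate 4 of 4 months read 4.95 in row 7007348 of Gtf2ird1, against 4.60 to 4.65 on the other null arrays of that age. WT replicate 4 of 2 weeks read 9.07 in row 7008286 of Gtf2ird1, against 8.64 to 8.70. Null replicate 3 of 2 weeks read 10.6 in row 7008782 of Gtf2ird1, against 10.38 to 10.41. None of these arrays decided a call of its row.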

How the results depend on the processing

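The falls of the 3 lost Gtf2ird1 rows kept their direction and their call at both ages under all 26 alternatives, with values from -4.59 to -4.37 and -4.76 to -4.62 (row 7007348), -3.85 to -3.63 and -4.01 to -3.78 (row 7008286), and -3.98 to -3.68 and -4.76 to -4.66 (row 7008402). No family row that was not called between the genotypes passed under any of them, and 0 partners and 0 targets passed after quantile normalization or median centring. Same-numbered arrays had residual correlations from -0.25 to 0.11, so the numbers do not pair the arrays, and a replicate block changed no call, with Gtf2ird2 in null over age at an adjusted p of 0.0716 and Gtf2i over both genotypes at 0.0179.

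Calls over age depended on the settings, and the cause was not tested except where fewer rows or arrays were fitted. In WT, row 7008402 of Gtf2ird1 missed the threshold with only the arrays compared (0.84), so that 0 rows were called, while Gtf2i passed after median centring (0.29) and with array weights (0.32), making 2 rows each time. In null, Gtf2ird2 passed with only rows of 1 symbol or only rows at or above the median signal (0.53 in both, 1 row called), and Gtf2ird2 (0.51) and Gtf2i (0.28) passed with array weights (2 rows). Averaged over the genotypes, Gtf2i lost its call after quantile normalization (0.18). Values near 0 that never passed changed sign: row 7007348 of Gtf2ird1 over age in null (-0.00235 with quantile normalization, -0.015 with median centring, -0.011 with array weights), row 7008782 over age in WT (-0.064 with quantile normalization, -0.00964 with the sex covariate, -0.00178 with the lens covariate, which was added after seeing the data), and the Gtf2i interaction (-0.042 with median centring, -0.047 with array weights, -0.022 with the sex covariate).

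With 1 array left out, the number of called rows ranged from 0 to 1 for the interaction, 1 to 2 over age in WT and 0 to 2 over age in null. Row 7008402 of Gtf2ird1 ran from -1.02 to -0.72 in the interaction, Gtf2i from 0.21 to 0.34 in WT and from 0.23 to 0.30 in null, and Gtf2ird2 from 0.42 to 0.62 in null; Gtf2i in both genotypes and Gtf2ird2 in null passed without WT replicate 1 of 2 weeks (0.34, 0.27 and 0.53), and Gtf2ird2 in null also without WT replicate 2 of 2 weeks, null replicate 3 of 4 months (0.62) or WT replicate 4 of 4 months. Signs changed among values that never passed for row 7007348 (-0.079 to 0.052), row 7008286 (-0.086 to 0.13) and row 7008402 (-0.082 to 0.015) over age in null, row 7008782 over age in WT (-0.046 to 0.040) and between genotypes at 4 months (-0.0076 to 0.078), Gtf2ird2 between genotypes at 2 weeks (-0.011 to 0.15) and the Gtf2i interaction (-0.068 to 0.057). The arrays give no signal over background, so a level near that of absent transcripts is only a bound.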
